A study of Mus musculus with 4 samples.

Results

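The genes described here are 31 genes of glycolysis and glucose transport: glucose carriers, the enzymes of each step from glucose to lactate with their isoenzymes, the side reactions of phosphoglucomutase and bisphosphoglycerate mutase, lactate and pyruvate carriers, and the kinases and the E1 alpha subunit that govern entry of pyruvate into the mitochondrial pyruvate dehydrogenase complex. They were chosen by gene name, and all 31 had a row among the 24190 gene symbols of the deposited tables. The parent was E14 (ES-E14TG2a), a male mouse embryonic stem cell (ESC) line that is long established, kept in serum-free N2B27-based medium with the MEK inhibitor PD0325901 and the GSK3β inhibitor CHIR99021, so every library carries that treatment. Reporter lines derived from it, each a single clone per the labels, carried a Zscan4c promoter in front of GFP (the GFP line) or of a GFP-Zscan4c fusion (the GFP-Zscan4c line, here the fusion line). Each of the 2 lines was sorted into GFP-negative cells, labelled pluripotent, and GFP-positive cells, labelled 2C-like for their resemblance to the mouse embryo at its 2-cell stage, with 1 poly-A RNA library per population and 4 libraries in all. The fusion encodes Zscan4c itself, so sorted GFP-positive fusion cells carry both the reporter state and the added protein.

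Glycolysis splits glucose into pyruvate in the cytosol and yields ATP and NADH. Lactate dehydrogenase recycles the NADH by reducing pyruvate to lactate, while pyruvate dehydrogenase sends pyruvate on to the TCA cycle, and pyruvate dehydrogenase kinases switch that enzyme off. ESCs are known for a high glycolytic rate, and hypoxia-inducible factors and Myc proteins are known activators of many of these genes.

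Expression is given in TPM, a transcript's share of its library on a fixed scale, which scales reads by transcript length and library total, so levels may be compared between genes. In each sentence with a pair of values the GFP-negative library comes first. Ratios are GFP-positive over GFP-negative on the log2(TPM + 1) scale unless stated otherwise, and a gene was called 2-fold apart among genes at 5 TPM or more in either library of the comparison. With 1 library per population these calls have no replicate check. Read counts cannot be had from TPM, and the depth behind each value is unknown. In sorted bulk populations, fewer cells of a type and less RNA per cell cannot be told apart.

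The sort was visible in Zscan4c, at 9.24 and 497 TPM in the GFP line and at 4.11 and 366 TPM in the fusion line. In the fusion line, RNA of the fusion and of the Zscan4c gene itself was not told apart. The summed level of 20 genes of the 2C-like state was at 26.1 and 1994 TPM in the GFP line and at 22 and 4183 TPM in the fusion line, and Pou5f1, the core pluripotency factor, lay between 1075 and 1447 TPM in all 4 libraries. The GFP line's negative library stood apart, with 48.4% of all symbols listed at 0 against 11.6% to 19.5% in the others. The fusion line's negative library was low in the pluripotency gene Dppa5a, at 41.4 TPM against 2280 to 2729 TPM elsewhere, and in the mesenchymal filament gene Vim, at 8.16 TPM against 178 to 310 TPM. Summed markers ranged from 95.6 to 282 TPM for primitive endoderm (6 of 9 genes with a row, 1 to 4 of them at 0) and from 46.0 to 66.6 TPM for trophectoderm (7 of 9 with a row, 1 to 5 at 0). For fibroblasts, 4 of 9 markers had a row. Thy1 was at 11.9 TPM (GFP line) and 7.27 TPM (fusion line) in GFP-positive cells and listed at 0 without GFP. Col1a1 and Col1a2, of the same list and named after their values were seen, were at 0.114 TPM or less in every library. Vim, also of that list, was at 310 and 190 TPM in the GFP line and at 8.16 and 178 TPM in the fusion line. The part of these differences in the results was not tested.

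In the GFP line, most glycolysis genes were lower in GFP-positive than in GFP-negative cells, and in the fusion line the same contrast was small. The 31 genes together were at 15168 and 10033 TPM in the GFP line, or 2.25% and 1.47% of the listed TPM. In the fusion line they were at 11425 and 11214 TPM, or 1.72% and 1.62%. The GFP line's negative library was thus the highest of the 4, and its GFP-positive library the lowest. The library with the highest sum is also the one with the most symbols at 0, and the part of that in the difference was not tested.

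**Figure D1:**
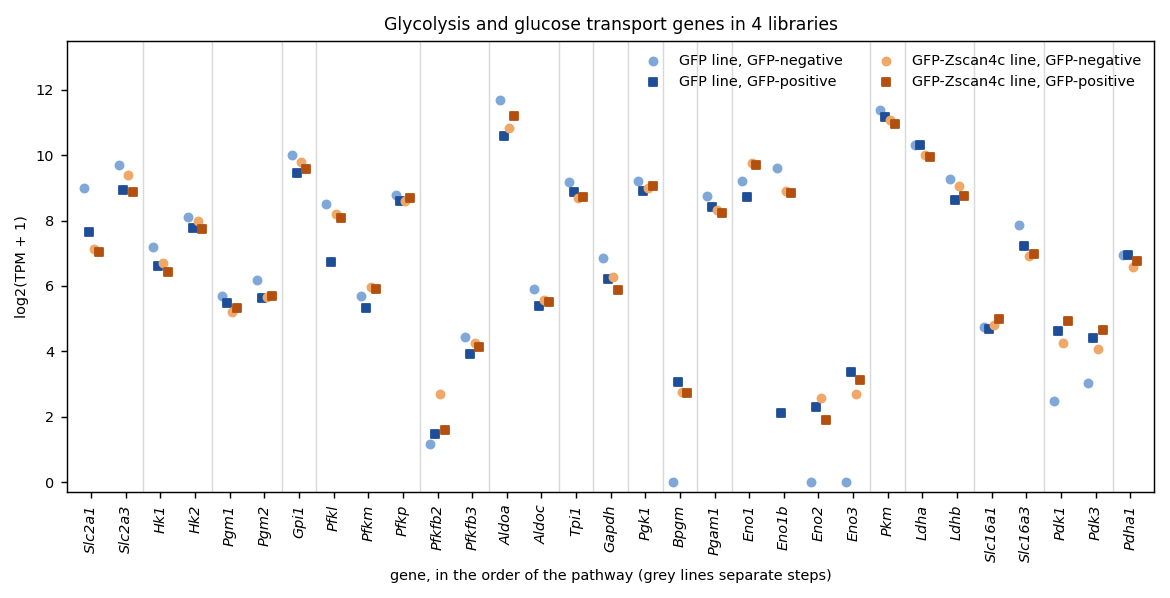
Level of each of the 31 genes in each library on the log2(TPM + 1) scale, ordered by pathway step, with 1 point per library and no error because each population is 1 library. For most genes the 4 points lie close together, while Eno1b is low in the GFP line's positive library (3.31 TPM), and Bpgm, Eno2 and Eno3 are listed at 0 in its GFP-negative library.

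Of the 29 genes at 5 TPM or more in the GFP line, 24 had a ratio below 0, or 82.8%, against 40.8% of all 11062 genes tested. Their median log2 ratio was −0.37, beside 0.19 for all genes. Lower by 2-fold or more were 4 of the 29 (Slc2a1, Pfkl, Aldoa and Eno1b), against 7.48% of all genes. Higher by 2-fold or more were also 4 (Pdk1, Pdk3, Eno3 and Bpgm), against 33.2% of all genes, and Eno3 and Bpgm had a 0 without GFP. These calls use the library with the most symbols at 0. Among genes at 100 TPM or more, a level chosen after seeing the data, 18 of 19 glycolysis genes had a ratio below 0 against 64.4% of 1429 genes, and the medians were −0.53 and −0.13. When the fusion line's negative library stood in for the GFP line's own, the median of the glycolysis genes was −0.069, beside 0.11 for all genes. Pfkl was then at −1.47, Eno1b at −6.80, Eno1 at −1.03, Pfkfb2 at −1.21 and Aldoa at −0.25, while Slc2a1 turned to 0.52. The share of all genes 2-fold apart in that comparison was not counted, so these values have no background. The median of the glycolysis genes minus that of all genes was −0.56 on the deposited scale and −0.17 after quantile scaling.

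In the fusion line, 18 of 30 tested genes had a ratio below 0, or 60.0%, against 32.2% of all 10981 genes. The median was −0.06, beside 0.14 for all genes. The low-level regulator Pfkfb2 was the 1 gene lower by 2-fold or more, against 3.14% of all genes, and 0 genes were higher, against 8.23%. Over all 31 genes, 19 ratios were below 0 on the deposited scale and 25 after median-ratio scaling of the libraries, which moved the median of all genes from 0.14 to −0.01. The median of the glycolysis genes minus that of all genes was −0.20 on the deposited scale, −0.21 after that scaling and −0.12 after quantile scaling.

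**Figure D2:**
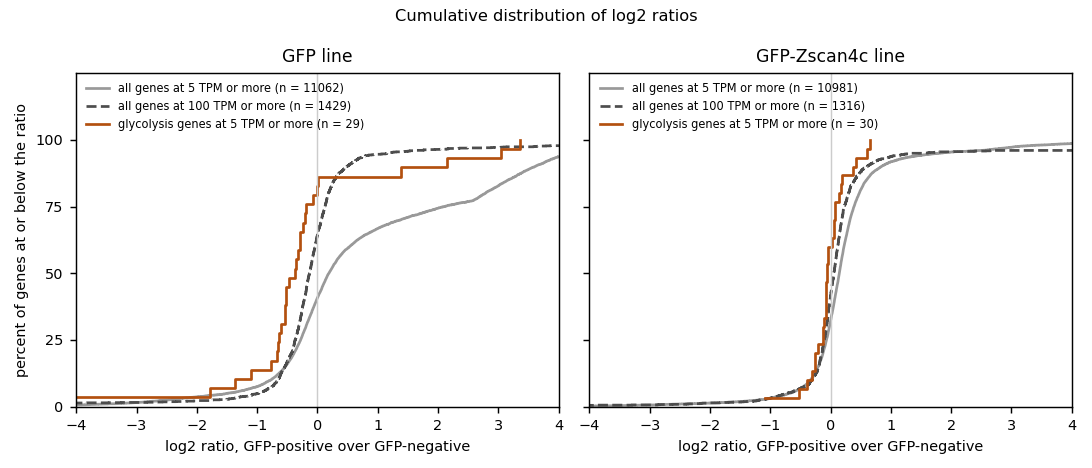
Cumulative percent of genes at or below each log2 ratio of GFP-positive over GFP-negative, in the GFP line (left) and the fusion line (right), for the glycolysis genes, all genes at 5 TPM or more and all genes at 100 TPM or more. In the GFP line the curve of the glycolysis genes lies to the left of both other curves around 0 (82.8% below 0 against 40.8% and 64.4%). In the fusion line 60.0% of the glycolysis genes were below 0, against 32.2% and 41.4%. Glycolysis genes at 100 TPM or more, not drawn, had 94.7% below 0 in the GFP line and 66.7% in the fusion line.

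Over the 29 genes tested in both lines, 16 had a ratio below 0 in both, or 55.2%, against 16.4% of 10245 genes, and 4 had one above 0 in both, or 13.8%, against 45.4%. Summed over all listed transcripts, none was 2-fold lower in both lines, where 0.654% of all genes were. None was 2-fold higher in both, where 4.11% were. Over protein-coding transcripts alone, Slc2a3 was 2-fold lower in both lines and Pdk1 2-fold higher in both. The shares of all genes on that basis were not counted. limma, fitted over 14379 genes with GFP status and line as terms and 1 residual degree of freedom, called 0 of the 31 genes at an adjusted p under 0.05, and 0% of all genes. At an unadjusted p under 0.05 it had 2 of 31 glycolysis genes and 972 genes in all, or 6.76%. Of the 31 estimates 24 were below 0, with a median of −0.26 beside 0.26 for all genes. With GFP status as the only term, the 4 libraries gave 0 of the 31 called and 24 estimates below 0. At an unadjusted p under 0.05 that fit had 3 of the 31, or 9.68%, against 7.05% of all genes. Fits without 1 library also had GFP status as the only term, so they are read against that fit. Without the fusion line's negative library 23 of the 31 estimates were below 0, with a median of −0.35 beside 0.35 for all genes. Without the GFP line's negative library 16 were below 0, with a median of −0.01 beside 0.12. Nothing says that the lines came from separate cultures, so these p-values measure only the spread between 4 libraries.

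**Figure D3:**
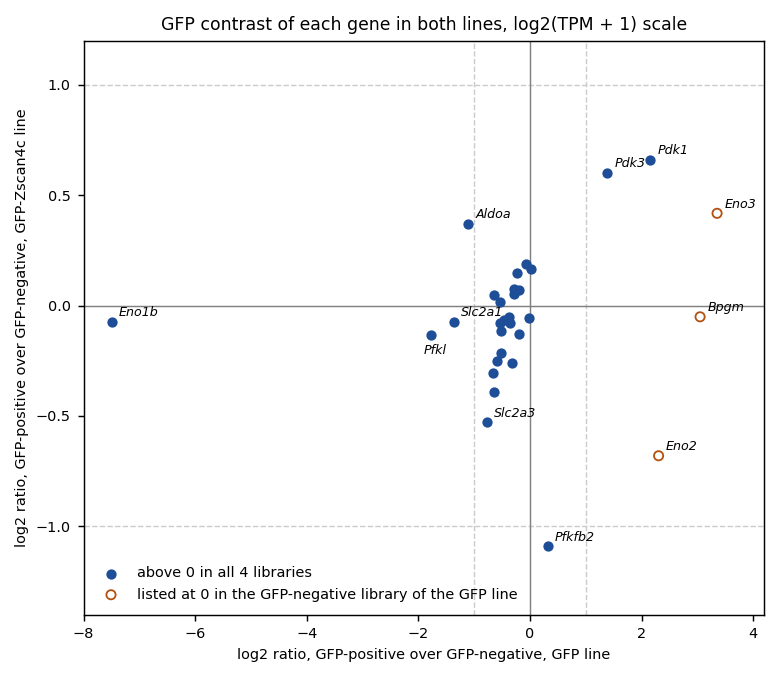
Log2 ratio of GFP-positive over GFP-negative for each gene in the GFP line (x axis) and the fusion line (y axis, narrower range), with dashed lines at a 2-fold difference and open circles for genes listed at 0 in 1 library. Most points lie left of 0 and near 0 on the y axis, with Slc2a3 low in both (−0.78 and −0.53), and Pdk1 and Pdk3 are to the upper right.

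The first step is entry of glucose through facilitative carriers, of which Slc2a1 (GLUT1) and Slc2a3 (GLUT3) are among the 31 genes. Slc2a3, the high-affinity carrier, was at 835 and 487 TPM in the GFP line and at 674 and 468 TPM in the fusion line, with ratios of −0.78 and −0.53. Both GFP-positive libraries lay below both GFP-negative ones. Its limma estimate of −0.65 (SE 0.13) had the smallest p of the 31 genes, with an unadjusted p = 0.0122 and an adjusted p = 0.460. Slc2a1 (chr4:119108711-119137983, plus strand, GRCm38) was at 512 and 198 TPM in the GFP line and at 138 and 131 TPM in the fusion line, with ratios of −1.37 and −0.07. Only the GFP line's negative library was high in Slc2a1, and the other 3 lay between 131 and 198 TPM. Slc2a3 held 62.0% to 83.0% of the summed TPM of Slc2a1 and Slc2a3 in the 4 libraries. That sum, which leaves out other carriers, was at 1347 and 685 TPM in the GFP line and at 812 and 599 TPM in the fusion line. The retained-intron transcript Slc2a3-204 supplied 5.04% to 81.0% of the Slc2a3 level. The nonsense-mediated decay transcript Slc2a1-204 supplied 1.86% to 64.8% of the Slc2a1 level. The balance of the carriers given here is thus not that of coding transcripts.

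Hexokinases trap glucose in the cell as glucose 6-phosphate. Hk2, the form induced in fast-growing cells, was at 276 and 219 TPM in the GFP line and at 254 and 212 TPM in the fusion line. Hk1, the widespread form, was at 145 and 95.6 TPM and at 102 and 85.8 TPM. For both genes the GFP-positive library was the lower in each line, with ratios from −0.60 to −0.25. Hk2 made up 65.5% to 71.3% of the hexokinase sum, a balance that differed little between libraries. The tables hold 7 of the 20 Hk1 transcripts in GENCODE M21 and 0 of its 2 principal ones, so its level may be a part of the whole. Gpi1, which converts glucose 6-phosphate to fructose 6-phosphate, was at 1019 and 707 TPM and at 893 and 770 TPM, with ratios of −0.53 and −0.21.

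Phosphoglucomutases link glucose 6-phosphate to glycogen. The symbols Pgm1 and Pgm2 of the deposited tables are exchanged relative to GENCODE M21, which calls the gene listed as Pgm1 Pgm2 and the reverse. The listed Pgm1 was at 50.9 and 43.2 TPM in the GFP line and at 35.4 and 39.3 TPM in the fusion line, and the listed Pgm2 was at 70.9 and 48.6 TPM and at 50.1 and 50.7 TPM. In the fusion line the ratios of both were above 0 as deposited (0.15 and 0.02) and below 0 after median-ratio or quantile scaling.

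Phosphofructokinase carries out the committed step, and its subunits come from a liver-type, a muscle-type and a platelet-type gene. The liver-type Pfkl (chr10:77986947-78010083, minus strand) was at 361 and 105 TPM in the GFP line and at 292 and 266 TPM in the fusion line. The GFP line's positive library alone was low, and the ratios were −1.77 and −0.13. The platelet-type Pfkp was at 443 and 387 TPM and at 388 and 407 TPM, so it differed little. The muscle-type Pfkm was at 50.5 and 38.8 TPM and at 61.7 and 59.5 TPM. The make-up of the summed RNA therefore differed in 1 library. Pfkp held 72.9% of the phosphofructokinase sum in the GFP-positive cells of the GFP line and 51.8% to 55.6% in the other 3 libraries. Pfkl held 19.8% in those cells against 36.3% to 42.3% in the other 3 libraries. The retained-intron transcript Pfkp-211 supplied 39.1% to 52.1% of the Pfkp level, and the protein-coding Pfkl-201 75.8% to 94.0% of the Pfkl level. These shares are thus not those of coding transcripts or of enzyme subunits. The limma estimate for Pfkl was −0.95 (SE 0.47), with an adjusted p = 0.683.

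Bifunctional enzymes of the Pfkfb family make and remove fructose 2,6-bisphosphate, the main activator of phosphofructokinase. Pfkfb3 was at 20.4 and 14 TPM in the GFP line and at 18.2 and 16.7 TPM in the fusion line. Pfkfb2 was at 1.24 and 1.79 TPM and at 5.46 and 2.03 TPM, so the call in the fusion line (−1.09) rests on values close to the 5 TPM limit. With transcripts typed as protein-coding alone, its ratio in that line was 0.14. In the same line the Pfkfb3 ratio was −0.12 over all listed transcripts and 0.61 over protein-coding ones.

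Aldolase splits fructose 1,6-bisphosphate. Aldoa (chr7:126795234-126800751, minus strand), the most abundant of the 31 genes in 2 libraries, was at 3311 and 1539 TPM in the GFP line and at 1828 and 2363 TPM in the fusion line. Its direction was opposite in the lines, with ratios of −1.10 and 0.37. Aldoc, the brain-type gene, was at 59.2 and 40.6 TPM and at 46.7 and 44.1 TPM, and Aldoa held 97.4% to 98.2% of the aldolase sum throughout. Triosephosphate isomerase, Tpi1, was at 574 and 472 TPM and at 409 and 424 TPM.

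Pgk1, which makes the first ATP, was at 586 and 479 TPM in the GFP line and at 504 and 531 TPM in the fusion line, with ratios of −0.29 and 0.07. Pgam1, the phosphoglycerate mutase, was at 434 and 338 TPM and at 316 and 299 TPM, with ratios of −0.36 and −0.08. Pkm, pyruvate kinase, was at 2661 and 2310 TPM and at 2148 and 1965 TPM, with ratios of −0.20 and −0.13. Bpgm, which makes 2,3-bisphosphoglycerate on a side branch, was listed at 0 and at 7.27 TPM in the GFP line and at 5.81 and 5.58 TPM in the fusion line. The other 3 libraries thus lay close together. For Pgk1 and Tpi1 the small positive ratios in the fusion line (0.07 and 0.05) were below 0 after median-ratio scaling.

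Gapdh, the dehydrogenase that reduces NAD, was listed at 115 and 72.9 TPM in the GFP line and at 76.3 and 58.0 TPM in the fusion line, well below its neighbours in the pathway. The tables hold 6 of its 13 transcripts in GENCODE M21 and 0 of the 2 principal ones, and the 482-base Gapdh-209 supplied 73.8% to 82.5% of the listed level. Near-identical copies carried far more TPM: 81 listed genes, of which 80 are annotated as processed pseudogenes, matched a Gapdh transcript at 95.1% to 100% identity. These copies summed to 4265 and 3555 TPM in the GFP line and to 3257 and 3052 TPM in the fusion line. The ratios of Gapdh were −0.65 and −0.39 alone and −0.27 and −0.10 with its copies. How the authors divided reads between a gene and such copies is not given in the sources used here, so the listed Gapdh level is uncertain.

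Enolase dehydrates 2-phosphoglycerate, and Eno1 is the form of most cells. Eno1 (chr4:150236721-150248879, plus strand) was at 587 and 422 TPM in the GFP line and at 865 and 826 TPM in the fusion line. Eno1b, a retrogene on chromosome 18 whose listed transcript aligned to Eno1-202 at 99.5% identity over 1652 bases, was at 776 and 3.31 TPM and at 479 and 455 TPM. The processed pseudogene Gm4735, 99.8% identical to Eno1b, was at 782 and 29.6 TPM and at 502 and 483 TPM. Eno1b and Gm4735 were thus both low in the GFP line's positive library and nowhere else. The sum of Eno1, Eno1b and their 2 copies was at 2442 and 631 TPM in the GFP line, a ratio of −1.95, and at 2013 and 1961 TPM in the fusion line, a ratio of −0.04. The principal transcript Eno1-202 was listed at 0 in both libraries of the GFP line and at 673 and 651 TPM in the fusion line. Reads shared among such close copies could be assigned to any of them, so each gene's own value is uncertain. The nerve-type Eno2 was listed at 0 and at 3.94 TPM in the GFP line and at 4.94 and 2.71 TPM in the fusion line, and the muscle-type Eno3 at 0 and 9.21 TPM and at 5.47 and 7.64 TPM.

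**Figure D4:**
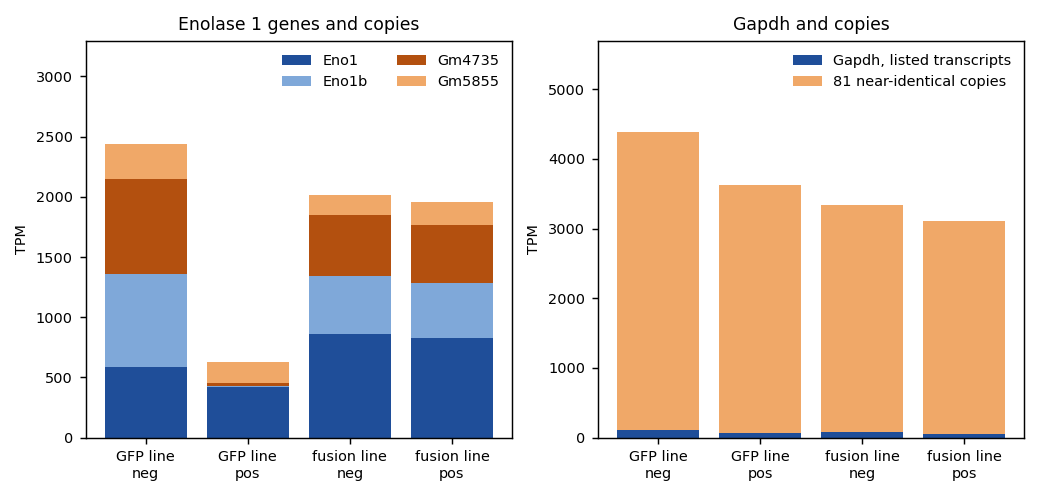
Stacked TPM of Eno1, Eno1b and their near-identical copies Gm4735 and Gm5855 (left) and of Gapdh and its 81 near-identical copies (right) in each library, with 1 bar per library. The enolase bar of the GFP line's positive library is the low one, at 631 TPM against 1961 to 2442 TPM, and copies make up nearly the whole of each Gapdh bar.

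Other enzymes with listed copies were Pgk1, Pgam1, Pkm, Tpi1, Gpi1 and Ldhb. The copy Pgam1-ps2, identical to its parent transcript over its whole length, was at 554 and 440 TPM in the GFP line and at 406 and 384 TPM in the fusion line, above Pgam1 itself. The identical copies of Pgk1, Gm5537 and Pgk1-rs7, summed to 583 and 472 TPM and to 486 and 519 TPM, close to Pgk1 itself. Adding copies moved the Pgam1 ratios from −0.36 and −0.08 to −0.34 and −0.08, and those of Pgk1 from −0.29 and 0.07 to −0.30 and 0.08. The Pkm copy Gm6560 was at 604 and 642 TPM in the GFP line and at 471 and 449 TPM in the fusion line.

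Lactate dehydrogenase is built from Ldha and Ldhb subunits, the first favoured in glycolytic cells. Ldha was at 1269 and 1260 TPM in the GFP line and at 1016 and 977 TPM in the fusion line. Its ratios were −0.01 and −0.06, and that of the GFP line was above 0 after median-ratio or quantile scaling. Ldhb was at 622 and 390 TPM and at 532 and 431 TPM, with ratios of −0.67 and −0.30, and both GFP-positive libraries lay below both GFP-negative ones. Its limma estimate was −0.49 (SE 0.15), with an unadjusted p = 0.0429 and an adjusted p = 0.682. Ldha supplied 67.1% and 76.3% of the sum in the GFP line and 65.6% and 69.4% in the fusion line, the higher share being that of GFP-positive cells in each. Of the carriers that move lactate and pyruvate across the plasma membrane, Slc16a3 (MCT4), known for lactate export, was at 230 and 147 TPM in the GFP line and at 120 and 124 TPM in the fusion line. Its ratios were −0.64 and 0.05, and that of the fusion line was below 0 after median-ratio or quantile scaling. Slc16a1 (MCT1) was at 25.9 and 24.5 TPM and at 26.7 and 30.5 TPM, with ratios of −0.08 and 0.19.

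Pdk1 and Pdk3, kinases that hold back pyruvate dehydrogenase, had ratios above 0 in both lines. Pdk1 was at 4.54 and 23.6 TPM in the GFP line and at 18.2 and 29.3 TPM in the fusion line, with ratios of 2.15 and 0.66. Transcripts not typed as protein-coding led in the GFP line, Pdk1-204 with 86.6% of the level without GFP and Pdk1-208 with 55.0% with GFP. Pdk1-201, the listed transcript typed as protein-coding, was at 0.0744 and 8.69 TPM in the GFP line and at 7.68 and 24.2 TPM in the fusion line. Pdk3 (chrX:93764607-93832201, minus strand) was at 7.11 and 20.2 TPM and at 15.6 and 24.2 TPM, with ratios of 1.38 and 0.60. For both genes the GFP-positive libraries lay above both GFP-negative libraries, and the GFP line's negative library was the lowest. Together they were at 11.7 and 43.8 TPM in the GFP line and at 33.8 and 53.6 TPM in the fusion line, and the limma estimates were 1.41 (SE 0.57) and 0.99 (SE 0.47), each with an adjusted p = 0.683. Against the fusion line's negative library, the GFP line's positive library gave 0.36 for Pdk1 and 0.35 for Pdk3. The related kinase Pdk2 was listed at 0 and at 7.01 TPM in the GFP line and at 6.97 and 7.02 TPM in the fusion line. Pdk4, named after its values were seen, was below the 5 TPM limit throughout, at 3.69 and 1.09 TPM in the GFP line and no higher than 4.44 TPM, its GFP-positive level, in the fusion line. Pdha1, the E1 alpha subunit that these kinases phosphorylate, was nearly level at 122 and 123 TPM and at 95.5 and 107 TPM.

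The same libraries can be compared between lines within each sorted population. These contrasts share their libraries with those above and add no independent evidence. In GFP-positive cells, with the fusion line over the GFP line, Pfkl (1.34) and Eno1b (6.72) were the 2 of 29 genes higher by 2-fold or more, against 5.71% of all genes, and 0 were lower, against 4.05%. The median was 0.06, beside 0.05 for all genes. In GFP-negative cells, 5 of 30 genes were higher (Pdk1, Pdk3, Pfkfb2, and Eno3 and Bpgm, which were listed at 0 in the GFP line), against 30.1% of all genes. Slc2a1 was the 1 gene lower, at −1.88, against 8.49%, and the median was −0.31, beside 0.04 for all genes. In GFP-negative cells 22 of 30 ratios were below 0, against 48.3% of all genes. At 100 TPM or more it was 18 of 19, against 76.0% of all genes. For this population the median of the glycolysis genes minus that of all genes was −0.34 on the deposited scale, −0.089 at 100 TPM or more and 0.05 after quantile scaling, so its sign depended on the scaling.

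The deposited tables list transcripts, and several gene sums were made of different transcripts in different libraries. For Slc2a1, the principal transcript Slc2a1-201 was at 387 TPM in the GFP line's negative library and between 0.770 and 1.44 TPM in the other 3. The nonsense-mediated decay transcript Slc2a1-204 was at 9.53 TPM there and between 85.0 and 89.7 TPM elsewhere. Slc2a1-201 thus made up 75.6% of the Slc2a1 level in that library and 0.389% to 1.10% in the others. Slc2a3 likewise had its principal transcript Slc2a3-201 at 763 TPM in that library and at 77.6 TPM or less in the others, where the retained-intron transcript Slc2a3-204 led with 354 to 393 TPM. Over protein-coding transcripts alone, the Slc2a3 ratios were −3.05 in the GFP line and −1.87 in the fusion line. In the fusion line the principal transcript went the other way, with Slc2a3-201 at 0.00222 and 75.01 TPM. The lower coding sum there came mainly from the 601-base Slc2a3-202, at 270 and 2.13 TPM. The 418-base Slc2a3-207 was also lower, at 44.7 and 9.01 TPM.

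Further along the pathway, Gpi1-201 was listed at 0 in the GFP line's negative library and at 266 to 332 TPM in the others, while the 485-base Gpi1-210 was at 595 TPM in that library and at 44.4 to 56.5 TPM elsewhere. Ldha was carried by Ldha-202 in that library, at 1244 TPM, and by Ldha-201 and the 645-base Ldha-206 in the others, although the Ldha sum differed little within the line. Aldoa-201 led in 2 libraries, the GFP-negative one of the GFP line (2974 TPM) and the GFP-positive one of the fusion line (1983 TPM), and Aldoa-202 led in the other 2 (1085 and 1693 TPM). Those with Aldoa-201 in the lead also had the higher Aldoa sums. Pdk3-201 was listed at 0 in the GFP line's negative library and at 14.5 to 22.8 TPM in the others. Counted over genes at 20 TPM or more with more than 1 listed transcript, 6 of 21 glycolysis genes had 50% or more of their TPM on other transcripts between the sorted populations of the GFP line (Slc2a1, Slc2a3, Gpi1, Aldoa, Ldha and Slc16a3), against 22.4% of all such genes. In the fusion line there were 2 of 21 (Hk1 and Aldoa), against 8.51%. Between lines it was 5 of 23 in GFP-positive cells, against 9.09%, and 7 of 21 in GFP-negative cells, against 22.4%. Within the lines these shares are near the background, and whether transcripts or their assignment differed was not tested.

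**Figure D5:**
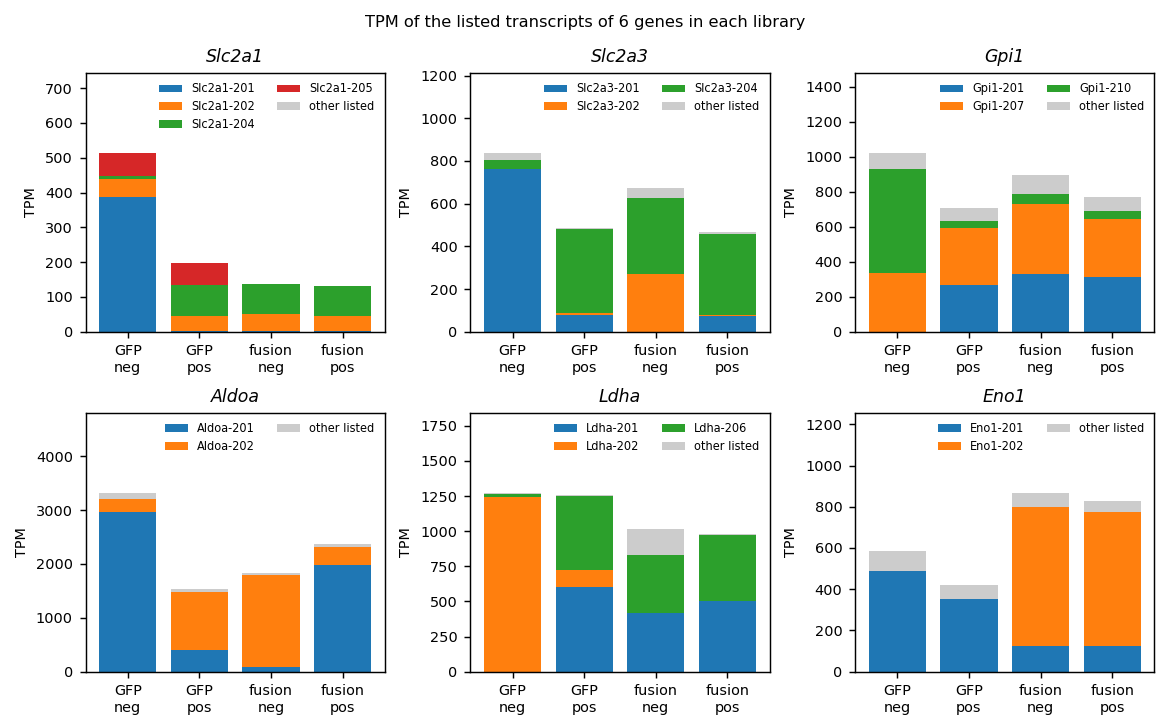
Stacked TPM of the leading listed transcripts of 6 genes in each library (GFP line and GFP-Zscan4c fusion line, GFP-negative and GFP-positive), with 1 bar per library. The make-up of the GFP-negative bar of the GFP line differs from the others for Slc2a1, Slc2a3, Gpi1 and Ldha, and Aldoa-201 leads Aldoa in 2 of the 4 libraries.

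Pyruvate kinase has a pair of mutually exclusive exons that define its M1 and M2 forms, M2 being the form known from embryonic and proliferating cells. The transcript with the M2 exon, Pkm-201, was at 2598 and 2298 TPM in the GFP line and at 2137 and 1932 TPM in the fusion line. The transcript with the M1 exon, Pkm-202, was at 62.6 and 11.9 TPM and at 10.7 and 32.5 TPM. Of the 11 Pkm transcripts in GENCODE M21, 2 are listed, so the comparison comes from 1 transcript with each exon. The M2 share of their sum was 97.6% to 99.5% in all 4 libraries. The exons are shown because they are the sequence that this share rests on. Both are exon 9 of their transcript, 167 bases long, on the plus strand of chromosome 9 in GRCm38 (GENCODE M21), M1 at chr9:59675029-59675195 and M2 at chr9:59675568-59675734. They are 61.7% identical, and capitals mark the 64 bases that differ between them.
Pkm M1 exon: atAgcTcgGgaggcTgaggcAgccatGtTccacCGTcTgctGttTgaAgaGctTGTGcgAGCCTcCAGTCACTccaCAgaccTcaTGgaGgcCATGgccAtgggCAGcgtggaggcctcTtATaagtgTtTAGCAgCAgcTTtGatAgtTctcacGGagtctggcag
Pkm M2 exon: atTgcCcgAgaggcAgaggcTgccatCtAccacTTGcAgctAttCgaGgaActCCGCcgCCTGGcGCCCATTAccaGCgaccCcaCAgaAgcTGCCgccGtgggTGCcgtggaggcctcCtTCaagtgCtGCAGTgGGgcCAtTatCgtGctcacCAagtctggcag

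Promoters were read from RefSeq windows of 300 bases (250 before to 50 after each start, GRCm38.p6), which matched 29 of the 31 genes by symbol with 44 windows, and Slc2a3 and Eno1b had none. The letters ACGTG, the core of the hypoxia response element, were searched on both strands, and CACGTG, an E-box bound by Myc-family proteins, contains them. ACGTG was in 22 of the 44 windows, or 50%, against 19.6% of 32851 promoter windows, and in 18 of the 29 genes, or 62.1%, against 21.8% of genes. The windows of the glycolysis genes were richer in GC, with a median of 61.2% against 52.7%. Among windows of 50% to 75% GC, 20 of 41 held ACGTG, or 48.8%, against 23.7% of 18747. CACGTG was in 5 of 44, or 11.4%, against 7.15%, and among windows of 50% to 75% GC in 4 of 41, or 9.76%, against 9.30%. A match is a description of the letters and not a bound site.

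Of the genes 2-fold lower in the GFP line, Slc2a1 had 1 ACGTG, Aldoa had 1 in 2 of its 3 windows, Pfkl had none and Eno1b had no window. Of those higher, Pdk3 had 1, and Pdk1, Eno3 and Bpgm had none. Ldha, nearly level between the sorted populations, had the most matches of any window, 5 counted over both strands, and each of its 2 CACGTG is a match on both. The windows of Slc2a1, Ldha, Pfkl and Pdk3 are shown 5′ to 3′ on the gene's strand as examples with and without a match, with every ACGTG of either strand in capitals (on the other strand it reads CACGT): Slc2a1 (chr4:119108495-119108794, plus strand), Ldha (chr7:46845554-46845853, plus strand), Pfkl (chr10:78009758-78010057, minus strand) and Pdk3 (chrX:93832101-93832400, minus strand).
Slc2a1 promoter: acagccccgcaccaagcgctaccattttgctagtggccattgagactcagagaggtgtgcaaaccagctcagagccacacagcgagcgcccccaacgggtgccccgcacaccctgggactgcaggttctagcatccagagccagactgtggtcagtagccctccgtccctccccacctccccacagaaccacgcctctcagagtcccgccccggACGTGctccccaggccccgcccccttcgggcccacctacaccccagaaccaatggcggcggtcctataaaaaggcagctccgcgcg
Ldha promoter: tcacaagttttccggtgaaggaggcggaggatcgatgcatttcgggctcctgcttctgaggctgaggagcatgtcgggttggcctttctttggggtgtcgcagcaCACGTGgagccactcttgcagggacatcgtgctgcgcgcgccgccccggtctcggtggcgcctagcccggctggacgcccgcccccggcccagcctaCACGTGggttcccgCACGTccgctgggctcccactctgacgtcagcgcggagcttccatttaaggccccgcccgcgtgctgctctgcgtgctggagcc
Pfkl promoter: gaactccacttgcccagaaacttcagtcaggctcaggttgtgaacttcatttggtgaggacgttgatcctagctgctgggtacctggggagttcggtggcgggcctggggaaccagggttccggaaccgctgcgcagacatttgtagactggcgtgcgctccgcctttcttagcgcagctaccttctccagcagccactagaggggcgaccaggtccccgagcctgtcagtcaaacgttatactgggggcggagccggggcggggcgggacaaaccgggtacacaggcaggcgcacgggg
Pdk3 promoter: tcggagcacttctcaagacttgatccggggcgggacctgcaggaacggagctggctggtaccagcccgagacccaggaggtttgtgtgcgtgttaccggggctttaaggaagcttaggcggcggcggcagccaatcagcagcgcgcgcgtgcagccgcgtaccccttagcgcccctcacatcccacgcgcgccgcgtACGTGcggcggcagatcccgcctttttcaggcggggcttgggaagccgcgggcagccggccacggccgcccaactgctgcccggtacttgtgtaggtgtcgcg

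Neighbouring pathways were followed through gene lists chosen with earlier results of these data known. Of 7 genes of the pyruvate dehydrogenase complex and the pyruvate carriers, all tested, 5 were higher by 2-fold or more in the GFP line and 0 in the fusion line, beside the 33.2% and 8.23% of all genes given above. The 5 were Dld, Pdhx, Mpc2, Pcx and, outside the naming rule and named after its value was seen, Dlat. Dld, the E3 subunit, was listed at 0 and at 26.4 TPM in the GFP line and at 22.6 and 33.5 TPM in the fusion line. Mpc2, a mitochondrial pyruvate carrier, was at 0.693 and 14.8 TPM and at 9.31 and 16.1 TPM. Dld and Mpc2 were both lowest in the GFP line's negative library, as were Pdhx (2.02 TPM), Dlat (13.8 TPM) and Pcx (listed at 0). The carrier gene Mpc1, named after its values were seen, went the other way, with ratios of −0.24 and −0.78. It was at 32.6 and 27.3 TPM in the GFP line and at 5.81 and 2.95 TPM in the fusion line. Of 10 pentose phosphate genes, 1 was higher (Prps2, listed at 0 without GFP) and 1 lower (G6pdx) in the GFP line, and 1 of 9 was higher in the fusion line, beside the same shares of all genes and 7.48% lower in the GFP line. The gene higher in the fusion line was Prps1, which makes phosphoribosyl pyrophosphate for nucleotides, at 73.7 and 165 TPM there and at 85.3 and 138 TPM in the GFP line. G6pdx, the entry enzyme of the pathway, was at 32.2 and 9.72 TPM in the GFP line and at 16.5 and 19.0 TPM in the fusion line.

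Of 16 TCA cycle genes, 12 had a ratio below 0 in the GFP line and 6 in the fusion line, against 40.8% and 32.2% of all genes, with medians of −0.26 and 0.06. The 1 gene 2-fold higher in the GFP line, against 33.2% of all genes, was Suclg2, a subunit of succinyl-CoA ligase, at 5.88 and 34.1 TPM. The median of the TCA cycle genes in the GFP line was thus also below that of all genes (0.19). Among 22 tested genes of the hypoxia pathway outside glycolysis, 4 were higher (P4ha2, Egln1, Hif1an and Plod2) and 1 lower (Ndrg1) in the GFP line, and 2 were higher (P4ha2 and Bnip3) and 1 lower (Arnt) in the fusion line. Of all genes, 33.2% were higher and 7.48% lower in the GFP line, and 8.23% and 3.14% in the fusion line. Ndrg1, Bnip3 and Arnt, at −1.01, 1.02 and −1.06 in those contrasts, were named after their values were seen. P4ha2, a collagen prolyl hydroxylase, stood at 12.3 and 67.6 TPM and at 21.2 and 116 TPM, with ratios of 2.37 and 2.40. Among transcription factors known to act on glycolysis genes, 2 of 9 were 2-fold higher (Mlx and Mlxipl) and 0 lower in the GFP line and 0 of 9 were 2-fold apart in the fusion line, beside 33.2% and 8.23% of all genes higher. Mycn was at 78.8 and 45.6 TPM and at 110 and 96.2 TPM.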

How the data were processed

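Poly-A RNA from 4 sorted mouse ESC populations was sequenced, and the authors deposited 1 table of TPM per transcript for each library. HISAT2 2.1.0, StringTie 1.3.5 and CASAVA are named with the build GRCm38 (mm10), per the submitters' processing notes. How the 58853 listed transcripts were picked is not given in the sources used here, nor are options or annotation. The deposited TPM sum to 66.6% to 69.1% of a full scale. TPM keep no depth, and no interval for counting error was given.

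TPM were summed per deposited symbol (Python 3.11.15, pandas 2.3.3). Log2 ratios used a pseudocount of 1 TPM, which understates differences of low genes, and 2-fold calls, made with no test, needed 5 TPM in either library. The limma package (3.58.1, R 4.3.3) with trended, robust eBayes, two-sided and adjusted by Benjamini-Hochberg over all genes, was fitted to log2(TPM + 1) of genes reaching 1 TPM in 2 libraries, with GFP status and line as terms. The line pairs the populations, per the labels, since both were sorted from the same clone. The limma fit was run on simulated data with the same spread for every gene, to check the size of its estimates. That check cannot speak for its p-values in the real libraries. Copies were found by aligning GENCODE M21 transcripts with minimap2 2.31 (95% identity or more over 50% or more of their own length). Positions come from GENCODE M21, and 58388 listed transcripts matched it.

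All 31 genes are named, with up to 4 of each other list by the largest mean ratio of both lines, from which the text takes a part, and Zscan4c, Pou5f1, Sox2 and Nanog. Genes and lists were chosen with earlier results of these data known. Sox2 was at 638 and 434 TPM in the GFP line and at 647 and 554 TPM in the fusion line, and Nanog at 387 and 419 TPM and at 299 and 359 TPM. Alternatives were other pseudocounts, filters and scalings, copies added, the line term dropped and each library left out. The alternatives chosen after seeing the data were protein-coding transcripts only, no Eno1, Eno1b or Gapdh, a 100 TPM filter and the other line's GFP-negative library.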

Additional observations from a re-analysis of the deposited data

Results flagged for a closer look

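For 3 of the 29 genes tested in both lines, the ratio of GFP-positive over GFP-negative had opposite signs in the lines on the deposited scale and after median-ratio and quantile scaling. None of these differences was tested, since each line has 1 library per population. Aldoa was at −1.10 in the GFP line and at 0.37 in the fusion line, a difference of −1.47, and its leading transcript also differed between libraries. Slc16a1 was at −0.08 and 0.19, a difference of −0.27. Bpgm was listed at 0 in the GFP line's negative library, and its values on the log2(TPM + 1) scale, 3.05 and −0.05, differed by 3.10.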

How the results depend on the processing

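Of 147 alternative values of the counts and medians, 126 stayed within a tolerance (counts within 1.5 times, medians within 1 SD of the values of the paired contrasts) and 21 moved, and the cause was not tested except where fewer genes entered. That SD is wide: the median of the fusion line, −0.06, was −0.22 after median-ratio scaling, and that of GFP-negative cells, −0.31, was −0.060 after quantile scaling. In the GFP line the genes higher numbered 2 at 20 TPM or more and among genes above 0 in all 4 libraries. They numbered 0 at 100 TPM or more, against 5.39% of all genes. With the other line's GFP-negative library they also numbered 0 and the median was −0.069. The share of all genes higher was not counted there. In the fusion line the genes lower numbered 0 with a pseudocount of 5 TPM and at 20 or 100 TPM or more. Over protein-coding transcripts 1 gene was higher there, Pdk1. In GFP-positive cells 4 genes were higher and 1 lower over protein-coding transcripts, and 1 was higher without Eno1, Eno1b and Gapdh. In GFP-negative cells 3 were higher with a pseudocount of 5 TPM, with quantile scaling, among genes above 0 in all libraries and over protein-coding transcripts, where 2 were lower, and 0 were higher at 20 or 100 TPM or more. limma called 1 glycolysis gene (178 genes in all) after quantile scaling. Without the line as a replicate block it called 0, with 3 at an unadjusted p under 0.05, or 9.68%, against 7.05% of all genes. Fits without 1 library had GFP status as the only term and gave 0 to 6: without the fusion line's negative library it called 6 (4204 genes in all), and in each of the other 3 cases 0, the lone library of an arm being assumed to vary like the others. Without the GFP line's negative library, 16 of 31 estimates were below 0, with a median of −0.01. Of 403 ratios of single genes, 51 moved and 3 turned: Slc2a1 to 0.52 and Eno2 to −0.27 in the GFP line with the other line's GFP-negative library, and Pfkfb2 to 0.14 in the fusion line over protein-coding transcripts. Quantile scaling moved the median of all genes in the GFP line from 0.19 to −0.13, and the median of the glycolysis genes minus it from −0.56 to −0.17.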

Other observations

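Of 35 further isoenzymes and regulators of glycolysis 21 had a row, and 5 of 9 tested were higher by 2-fold or more in the GFP line (Minpp1, Pdp2, Pdk2, G6pc3 and Slc2a8) and 0 of 10 in the fusion line, beside 33.2% and 8.23% of all genes. Pdp2, a phosphatase that reactivates pyruvate dehydrogenase, was listed at 0 and at 15.7 TPM in the GFP line and at 14.5 and 22.5 TPM in the fusion line. Minpp1 and Pdk2 were likewise listed at 0 in the GFP line's negative library, where G6pc3 was at 0.427 TPM. Slc2a8, at 5.42 TPM there, lies outside the naming rule and was named after its value was seen. Ugp2, which makes UDP-glucose, was at 3.40 and 15.7 TPM and at 12.6 and 11.5 TPM.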
